A study of Danio rerio with 48 samples.

Results

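The genes of the mitochondrial respiratory chain that are encoded in the nucleus were followed in the retina of adult zebrafish kept in continuous low light. They were chosen by symbol alone, as the genes whose names begin with the standard stems for subunits of complexes I to V (nduf with a, b, c, s or v and a digit, sdh, uqcr, cox4 to cox8, and atp5). This gave 85 genes of the 15245 listed: 36 of complex I, 8 of complex II, 7 of complex III, 17 of complex IV and 17 of complex V. The stems also take in genes that are not subunits: sdhaf2, sdhaf3 and sdhaf4 are assembly factors of complex II, and ndufa4 and ndufa4l correspond to a protein that in mammals sits in complex IV. RefSeq (assembly GRCz12tu, used for names only) now lists atp5s as dmac2l and cox7a3 as cox7a2l. The subunits encoded in the mitochondrial genome were not analysed here.

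The animals were albino zebrafish, 6 to 9 months old, dark-adapted for 24 h (the 0 h group) and then moved to continuous light of about 5000 lux from halogen lamps, a treatment called chronic low light (CLL). Left retinas were taken at 0 h, 24, 36 and 72 hours post light onset (hpl) and 5, 10, 14 and 28 days post light onset (dpl), 6 retinas per time-point and 48 in all, each made into a 3′ mRNA library (QuantSeq). The libraries came in 2 sets of 24, with 3 retinas per time-point in each, and a retina could carry pigment epithelium and vitreous. All groups shared the albino strain and the dark adaptation, and every light time-point was compared with the same 6 dark-adapted retinas, so the 7 comparisons share their controls. The 36 hpl retinas were the only light-exposed ones not taken a whole number of days after light onset, so that hour of the day and duration of light cannot be told apart there.

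The values are pseudocounts, read counts per gene that the authors adjusted to a common library size, and the libraries sum to between 1631676 and 1636771. The sequencing depth of each library can therefore not be read from these values. All 85 genes passed the filter on low values (at least 5 in at least 6 libraries), as did 11395 genes in all. Tests were made with limma on log2(value + 1), with library set in the model and p-values adjusted over the 11395 genes (Benjamini-Hochberg); a gene is called changed at an adjusted p below 0.05. Fold changes are on the log2(value + 1) scale and carry their standard error (SE). The median SE was 0.17 for the 85 genes and 0.32 for all genes. In bulk retina, fewer cells of a type and less RNA per cell cannot be told apart.

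The respiratory chain passes electrons from fuel molecules to oxygen and uses the energy to pump protons across the inner mitochondrial membrane. Electrons enter at complex I from NADH and at complex II (succinate dehydrogenase, also an enzyme of the citric acid cycle) from succinate, are carried by ubiquinone to complex III and by cytochrome c to complex IV, where oxygen is reduced, and complex V (ATP synthase) makes ATP as protons flow back. In the retina, photoreceptors hold dense clusters of mitochondria in their inner segments and are among the heaviest users of this energy.

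The catalytic subunits of complex II, sdha and sdhb, 2 of its assembly factors, sdhaf2 and sdhaf4, the NADH-binding subunit of complex I, ndufv1, and the complex IV isoform cox8b were higher than at 0 h at all 7 light time-points. These were 6 of the 85 genes, and over all genes tested 1.35% were higher at all 7. A total of 56 of the 85 genes were called at none of the 7, close to the 66.7% of all genes. Across the time-course as a whole (F test over the 8 time-points) 47 of the 85 genes varied, against 32.3% of all genes: 16 of 36 in complex I, 6 of 8 in complex II, 3 of 7 in complex III, 11 of 17 in complex IV and 11 of 17 in complex V. The mean level was highest at 28 dpl for 60 of the 85 genes and lowest at 36 hpl for 49. No share over all genes is given for these counts, so they are not read as particular to the 85 genes.

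**Figure D1:**
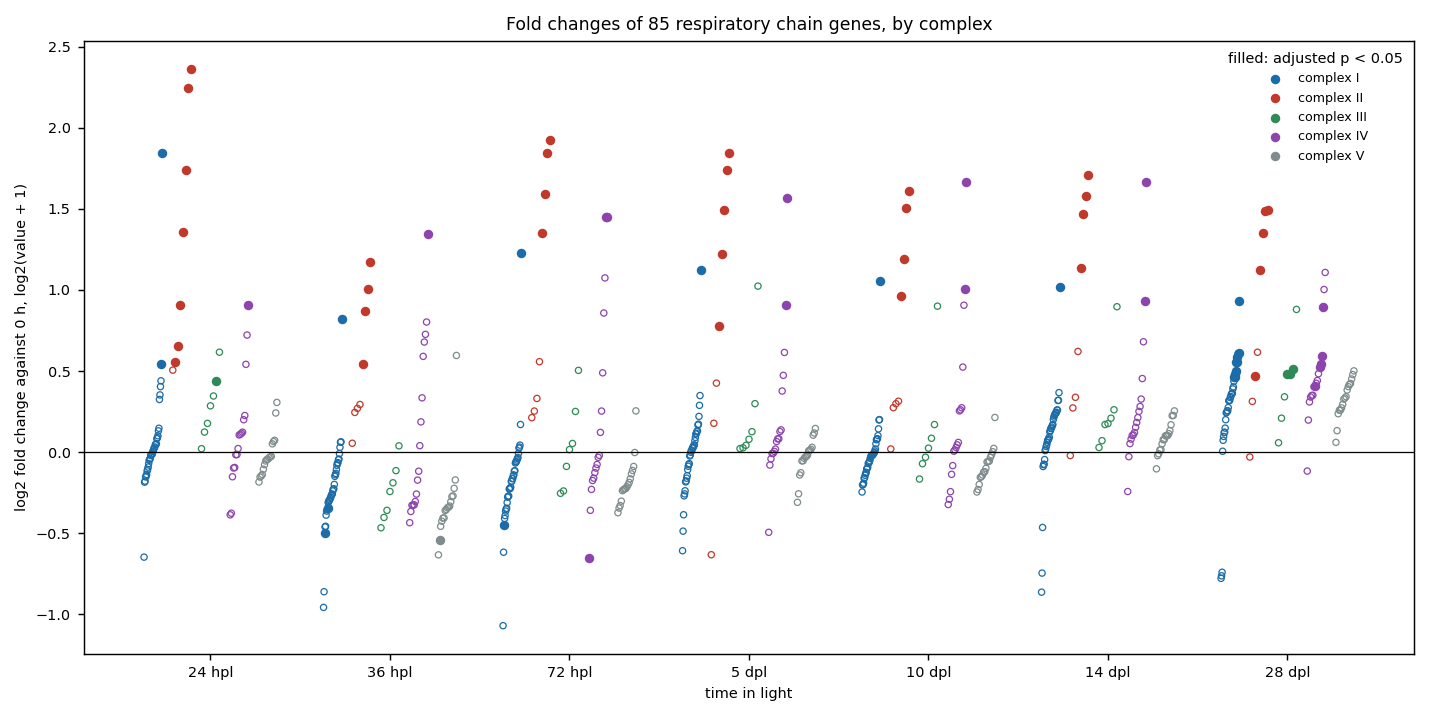
Log2 fold changes against 0 h (vertical axis, log2(value + 1) scale) of the 85 genes at the 7 light time-points (horizontal axis), coloured by complex and ordered by size within each. Filled points passed the test (limma, adjusted p below 0.05); the 4 highest points at 24 hpl are sdha, sdhaf2, ndufv1 and sdhaf4, the open points lie mainly below 0 at 36 hpl, and 80 of 85 are above 0 at 28 dpl.

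Among the complex II genes, sdha, the flavoprotein that oxidises succinate, had the largest fold change at 24 hpl. It had a pseudocount of 274 to 429 in the dark-adapted retinas (median 323) and of 1446 to 2208 at 24 hpl (median 1667). It then lay between 447 and 850.3 at 36 hpl (median 619), between 1080.4 and 1633 at 72 hpl (median 1146) and between 807 and 1687 at 5 dpl (median 1274). At every one of these time-points the lowest light-exposed retina was above the highest dark-adapted one. At 10 dpl the range was 543 to 1185.5 (median 771), at 14 dpl 702 to 1437 (median 1044) and at 28 dpl 816 to 1103 (median 912), again without overlap with 0 h. The log2 fold change was 2.37 (SE 0.17, adjusted p = 1.08e-15) at 24 hpl, 0.87 (adjusted p = 1.24e-04) at 36 hpl. It was 1.84 at 72 hpl and 1.85 at 5 dpl, then 1.19 at 10 dpl, 1.58 at 14 dpl and, at the end, 1.49 (28 dpl, adjusted p = 4.18e-09).

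Its partner sdhb, the iron-sulphur subunit that takes the electrons from the flavin, ranged from 162 to 251 at 0 h (median 187), from 422 to 620 at 24 hpl (median 502) and from 325 to 520 at 28 dpl (median 427). The light-exposed retinas did not overlap with the dark-adapted ones at any of the 7 time-points. The log2 fold change was 1.36 (SE 0.16, adjusted p = 8.66e-09) at 24 hpl, 1.35 at 72 hpl and 1.12 (adjusted p = 1.26e-06) at 28 dpl. The smallest was 0.54 (adjusted p = 0.0174) at 36 hpl, where the 6 retinas lay between 257 and 305. That call was lost when values were rescaled by median-of-ratios or upper-quartile factors, in either library set alone, without both 0 h libraries of unknown replicate number, and without 0 h library A of set 1 or 0 h replicate 2 (adjusted p up to 0.0545 with 1 library left out).

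The assembly factors that act on the same flavoprotein rose with it. SDHAF2 attaches the flavin to the SDHA protein, and sdhaf2 went from 8.54 to 36.5 at 0 h (median 29.3) to 107 to 133 at 24 hpl (median 119) and 63.5 to 83.6 at 28 dpl (median 69.9). SDHAF4 binds the flavin-loaded SDHA before it meets SDHB, and sdhaf4 went from 32.9 to 70.1 at 0 h (median 56.8) to 139 to 227 at 24 hpl (median 178) and 76.3 to 206 at 28 dpl (median 137). For both genes all 6 retinas of each light time-point were above all 6 at 0 h. The log2 fold change of sdhaf2 was 2.25 (SE 0.20, adjusted p = 2.43e-12) at 24 hpl and between 1.17 (36 hpl) and 1.93 (72 hpl) at the other time-points, numerically above that of sdha at 36 and 72 hpl and at 10 and 14 dpl. That of sdhaf4 was 1.74 (SE 0.19, adjusted p = 4.05e-10) at 24 hpl and between 1.01 (36 hpl) and 1.59 (72 hpl) afterwards.

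The rest of complex II moved less. The membrane anchor sdhc had values of 196 to 338 at 0 h (median 285) and 342 to 609 at 24 hpl (median 420.5), the only time-point at which it was called (log2 fold change 0.65, SE 0.21, adjusted p = 0.0222). The other anchor, sdhdb, ranged from 91.0 to 129 at 0 h (median 107) and from 140 to 199 at 24 hpl (median 149). It was called at 24 hpl (0.56, SE 0.15, adjusted p = 0.00555) and at 28 dpl (0.47, adjusted p = 0.0288). Both anchors were thus separated from 0 h in all 6 retinas at 24 hpl. sdhda, the paralogue of sdhdb, was scarce (mean 8.38 at 0 h) and was called at no time-point. sdhaf3, which in yeast and fly helps to keep the iron-sulphur subunit intact, was called at 24 hpl (log2 fold change 0.90, adjusted p = 0.00779) and at 5 dpl (0.78, adjusted p = 0.0372). Of the 8 complex II genes 7 were higher at 24 hpl. At 5 dpl and also at 28 dpl 5 were higher, and 4 at each of the remaining light time-points. Over all genes tested 5.59% to 9.66% were higher at the 7 time-points. None of the 8 was lower at any of them, against 1.51% to 7.14% of all genes.

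**Figure D2:**
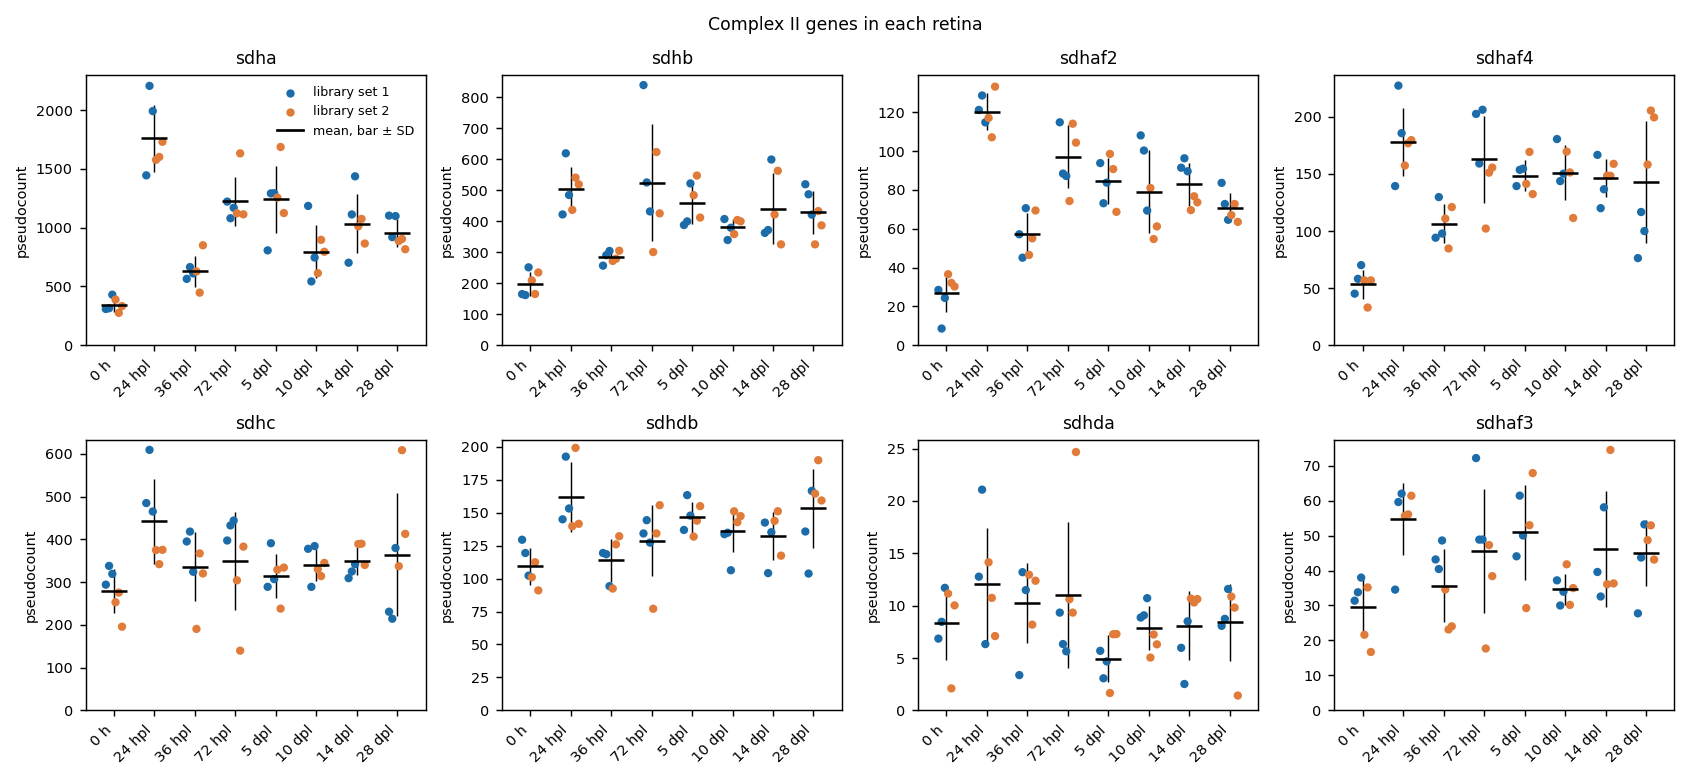
Pseudocounts (vertical axes, each starting at 0) of the 8 complex II genes in each of the 6 retinas per time-point (horizontal axes), coloured by library set, with the mean as a line and the standard deviation (SD) as a bar. The retinas of sdha, sdhb, sdhaf2 and sdhaf4 lie above all 0 h retinas at every light time-point, with a peak at 24 hpl for sdha (1446 to 2208), while sdhc, sdhdb, sdhda and sdhaf3 overlap with 0 h at most time-points.

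The catalytic subunits and the anchors can also be set against each other within a retina, where a single scaling factor per library would cancel apart from the added 1. How the authors made their adjustment is not given in the sources used here. The values near 0 do not read as whole counts times 1 factor. In 0 h library A of set 2, tnni2a.4 had 0.02, actc1b 0.15 and cox7a1 0.169. The adjustment may therefore not cancel in these ratios. The log2 ratio of sdha to sdhc was 0.29 ± 0.36 (SD, n = 6) at 0 h, 2.00 ± 0.25 at 24 hpl and 1.47 ± 0.64 at 28 dpl. At 24 hpl all 6 retinas, and at 28 dpl 5 of 6, were above every 0 h retina. The log2 ratio of sdhb to sdhdb went from 0.84 ± 0.45 to 1.64 ± 0.15 at 24 hpl, above every 0 h retina in 6 of 6, and was 1.49 ± 0.48 at 28 dpl, in 2 of 6. For sdha to sdhdb the values were 1.63 ± 0.36, 3.44 ± 0.25 and 2.65 ± 0.37, above every 0 h retina in 6 of 6 at both time-points. For sdhb to sdhc they were -0.50 ± 0.48, 0.20 ± 0.31 and 0.31 ± 0.70, above every 0 h retina in only 2 of 6 at 24 hpl and 2 of 6 at 28 dpl. These pairs were picked after the values were seen and are given as a description, with no test.

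Summed over its 8 genes, complex II took 0.0640% ± 0.0068 of the library signal at 0 h (SD, n = 6) and 0.198% ± 0.0288 at 24 hpl, which is 310% of the 0 h mean. The mean was 0.0962% (36 hpl), then 0.156% (72 hpl) and 0.150% (5 dpl), and was 0.118%, 0.137% and 0.133% at the last 3 time-points, in order. All 6 retinas were above all 0 h retinas at each light time-point. The other 77 genes together took 2.14% ± 0.234 at 0 h, 2.21% ± 0.0431 at 24 hpl, 1.81% ± 0.239 at 36 hpl and 2.76% ± 0.547 at 28 dpl, and these ranges overlapped with 0 h.

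**Figure D3:**
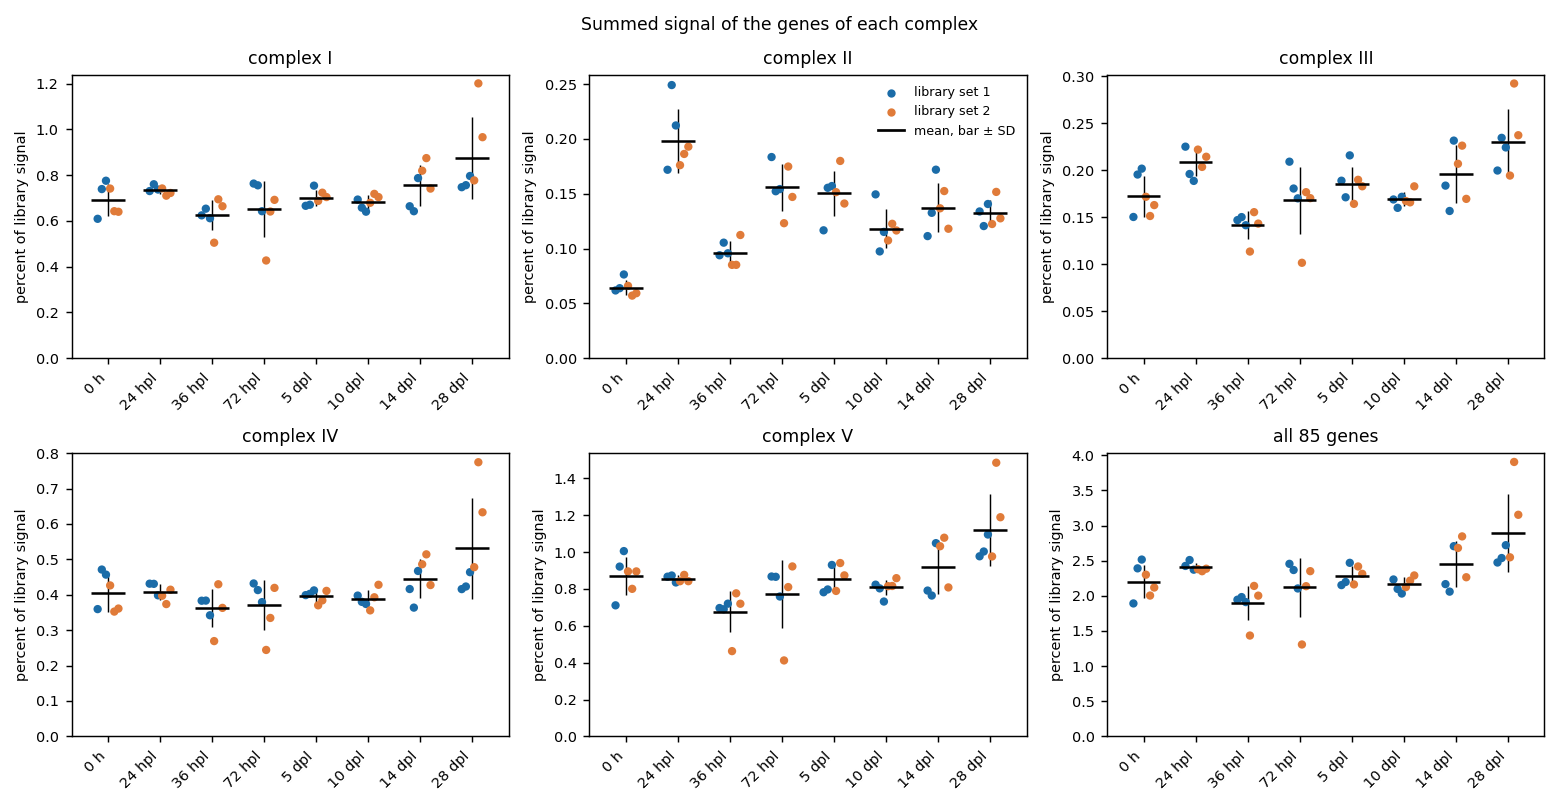
Summed signal of the genes of each complex and of all 85 genes, as a percentage of the library signal (vertical axes, starting at 0), in each retina at the 8 time-points (horizontal axes), with mean and SD. Complex II is above the 0 h range in every light-exposed retina, whereas complexes I, III, IV and V overlap with 0 h throughout and are lowest at 36 hpl in the mean, with 28 dpl replicate 5 high (3.90% for all 85 genes).

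The markers of other cell types moved in the same retinas. The pigment epithelium markers (11 listed, 10 tested) summed to 3844 to 8103 at 0 h (median 6179). The medians of the light time-points ran from 12926 to 19799. Of the 10 tested, 4 to 7 were called higher (background 5.59% to 9.66%), and 1 was called lower, at 24 hpl (background 7.14%). The rod markers (7 listed) went from a median of 74681 at 0 h to one of 14630 at 14 dpl, where 4 were called lower (background 2.31%). At 24 hpl, 72 hpl and 28 dpl 1 of them was called higher (background 8.37%, 9.2% and 7.74%). The cone markers (12 listed) summed to 98268 to 153800 at 0 h and to 47085 to 81780 at 36 hpl, below every 0 h retina. Their median at 36 hpl was the lowest of the time-course. The mean of 49 of the 85 genes was also lowest at 36 hpl, a count without a share over all genes. Of these 12 cone markers 5 were called lower there (background 3.8%) and 0 higher. At 24 hpl and at 72 hpl 6 were called lower (background 7.14% and 5.7%), and all light time-points but 36 hpl had 2 or 3 called higher. At 36 hpl pde6h, the most abundant of them at 0 h, had 10674 to 20519, against 40210 to 78989 at 0 h. Others overlapped with 0 h, opn1lw1, opn1sw1 and gngt2b among them. The microglia markers (7 tested) went from a median sum of 19.8 at 0 h to one of 90.0 at 10 dpl, where 4 were called higher (background 6.41%). The Mueller glia markers (7 listed, 6 tested) had a median sum of 4632 at 0 h and 6860 at 24 hpl, with overlapping ranges. At 24 hpl 1 of these was called higher and 1 lower (background 8.37% and 7.14%). In 2 light-exposed libraries the pigment epithelium sum lay within the 0 h range: 24 hpl replicate 1, at 4780.2, had an sdha pseudocount of 1446 and an ndufv1 pseudocount of 687, and 72 hpl replicate 4, at 5951, had 1122 and 337, all above every 0 h retina. The single markers of these 2 libraries were split. rpe65a (1924 and 2724, 0 h highest 1343) and rgra (803 and 752, 0 h highest 370) were above every 0 h retina. stra6 (1167 and 1123, 0 h lowest 2181) was below every one. The part of the marker shifts in these results was not tested.

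Complex I has its NADH-oxidising module at the tip of the peripheral arm, and ndufv1 encodes the subunit that binds NADH and the flavin. Its pseudocount was 169 to 213 at 0 h (median 192), 589 to 775 at 24 hpl (median 689), 254 to 404 at 36 hpl (median 353) and 285 to 441 at 28 dpl (median 365). No light-exposed retina overlapped with the dark-adapted ones at any time-point. The log2 fold change was 1.84 (SE 0.13, adjusted p = 3.97e-16) at 24 hpl, 0.82 (adjusted p = 2.41e-06) at 36 hpl. From 72 hpl to 14 dpl it lay between 1.02 and 1.23, and by 28 dpl it was 0.93 (adjusted p = 3.61e-07).

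The other core subunits of that module were not called at any time-point. ndufv2, which carries an iron-sulphur cluster, had a log2 fold change of 0.40 (SE 0.19, adjusted p = 0.155) at 24 hpl, and ndufs1, which carries further clusters, one of 0.35 (SE 0.17, adjusted p = 0.165). The log2 ratio of ndufv1 to ndufv2 was -0.13 ± 0.20 at 0 h (SD, n = 6), 1.31 ± 0.12 at 24 hpl and 0.68 ± 0.18 at 28 dpl, and all 6 retinas of both time-points were above every 0 h retina. The ratio of ndufv1 to ndufs1 also lay above every 0 h retina in 6 of 6 at both, with log2 means of -0.94, 0.55 and -0.15. These pairs, too, were picked after the values were seen and carry no test.

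In the rest of complex I, the most abundant gene by pseudocount, ndufs7, a core subunit next to the ubiquinone site, ranged from 1150.1 to 1838 at 0 h and from 1341 to 2683 at 28 dpl, with no call at any time-point. ndufb2, an accessory subunit of the membrane arm, was lower: 631 to 838 at 0 h (median 735), 511 to 635 at 36 hpl (median 573) and 422 to 658 at 72 hpl (median 551). The ranges touch only at their edges. Its log2 fold change was -0.35 (SE 0.11, adjusted p = 0.0337) at 36 hpl and -0.45 (SE 0.11, adjusted p = 0.00407) at 72 hpl. The 36 hpl call was lost in 8 of 48 fits with 1 library left out, in either set alone and without a variance trend. The 72 hpl call was lost in either set alone. ndufb8, another accessory subunit, was called at 28 dpl only (0.48, adjusted p = 0.0335). That call was lost in 6 of 48 fits with 1 library left out, and also under both scalings and in either set alone, among other settings.

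Complex IV is the oxidase, and several of its subunits exist as isoforms. cox8b, which in mammals is the heart and muscle isoform of subunit 8, ranged from 31.7 to 45.97 at 0 h (median 40.5), from 49.8 to 103 at 24 hpl (median 81.0), from 61.0 to 182 at 72 hpl (median 115) and from 44.1 to 122 at 28 dpl (median 76.2). It was separated from 0 h in all 6 retinas from 24 hpl to 14 dpl and in 5 of 6 at 28 dpl. In 1 library set alone, or in each alone, its call was lost at 5 time-points, all but 36 and 72 hpl, and with the replicate block at 5 dpl. The log2 fold change was 0.91 (SE 0.23, adjusted p = 0.00341) at 24 hpl, 1.34 (adjusted p = 1.55e-05) at 36 hpl, 1.45 (adjusted p = 4.51e-06) at 72 hpl and 0.89 (adjusted p = 0.00544) at 28 dpl. Its mean was 76.6 at 24 hpl and 106 at 36 hpl, where the means of all 8 complex II genes were below those at 24 hpl. Its counterpart cox8a, the widely expressed isoform, had 535 to 811 at 0 h and 634 to 824 at 24 hpl and was called at no time-point.

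cox7a1, also a muscle isoform in mammals, was scarce (0.0269 to 6.01 at 0 h, median 2.93) and was called from 72 hpl to 14 dpl. It reached the filter's value of 5 in only 1 of 6 libraries at 0 h and 1 of 6 at 24 hpl, so it was tested only because of the later groups in which it was high. Each of the 4 calls was lost in 5 or 6 of the 48 fits with 1 library left out, with adjusted p up to 0.144. Library A of set 2 and replicate 2 of 0 h were among these libraries for all 4 calls. The others were 72 hpl replicates 1, 2, 5 and 6, 5 dpl replicates 1, 2, 4 and 5, 10 dpl replicates 3, 5 and 6, and 14 dpl replicates 3, 4 and 6, each for the call of its own time-point. All 4 calls were also lost in either set alone, and those at 72 hpl and 5 dpl with no filter or a pseudocount of 5. At 14 dpl it ranged from 4.11 to 16.96 (median 9.57), which overlapped with 0 h, with a log2 fold change of 1.67 (SE 0.50, adjusted p = 0.0283). At 5 dpl 1 retina, replicate 5, reached 22.6 and the others stayed at or below 7.07. The striated muscle markers (21 listed, 10 tested) had 0 calls at each of the 7 time-points (limma), and their sum was 109 to 866 over all retinas. The paralogues cox7a2a (called at 28 dpl only, 0.55, adjusted p = 0.0471) and cox7a3 (called at none) had their own patterns.

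cox4i2, the isoform of the regulatory subunit 4 that in mammals is linked to low oxygen, moved apart from the other genes. It ranged from 442 to 964 at 0 h (median 654), from 369 to 599.9 at 24 hpl (median 561.5), from 769 to 975 at 36 hpl (median 834) and from 266 to 526 at 72 hpl (median 472). The 36 hpl retinas lay wholly above those at 24 and 72 hpl. Against 0 h it was lower at 72 hpl (log2 fold change -0.65, SE 0.18, adjusted p = 0.00868), a call lost in set 2 alone and with the replicate block. Between neighbouring time-points it rose from 24 to 36 hpl (0.72, adjusted p = 0.00233) and fell from 36 to 72 hpl (-0.99, adjusted p = 6.65e-05). It was the only gene of the 85 whose time-course differed between the library sets (time-point by set interaction, adjusted p = 0.0226, background 0.948%), with log2 fold changes of -0.82 in set 1 and 0.58 in set 2 at 28 dpl and of -0.75 and -0.55 at 72 hpl. The number of genes with such a difference was 0 without 28 dpl replicate 1, 2, 5 or 6 and without a variance trend, and up to 10 without another library. cox4i1, the widely expressed isoform, had 0.11 and -0.12 against 0 h at 24 and 36 hpl and was called at 28 dpl only (0.41, adjusted p = 0.0328). cox7c, the gene of the complex with the highest mean pseudocount, ranged from 903 to 1325 at 0 h and from 553 to 1005 at 72 hpl and was called at no time-point (-0.36, adjusted p = 0.133 at 72 hpl).

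**Figure D4:**
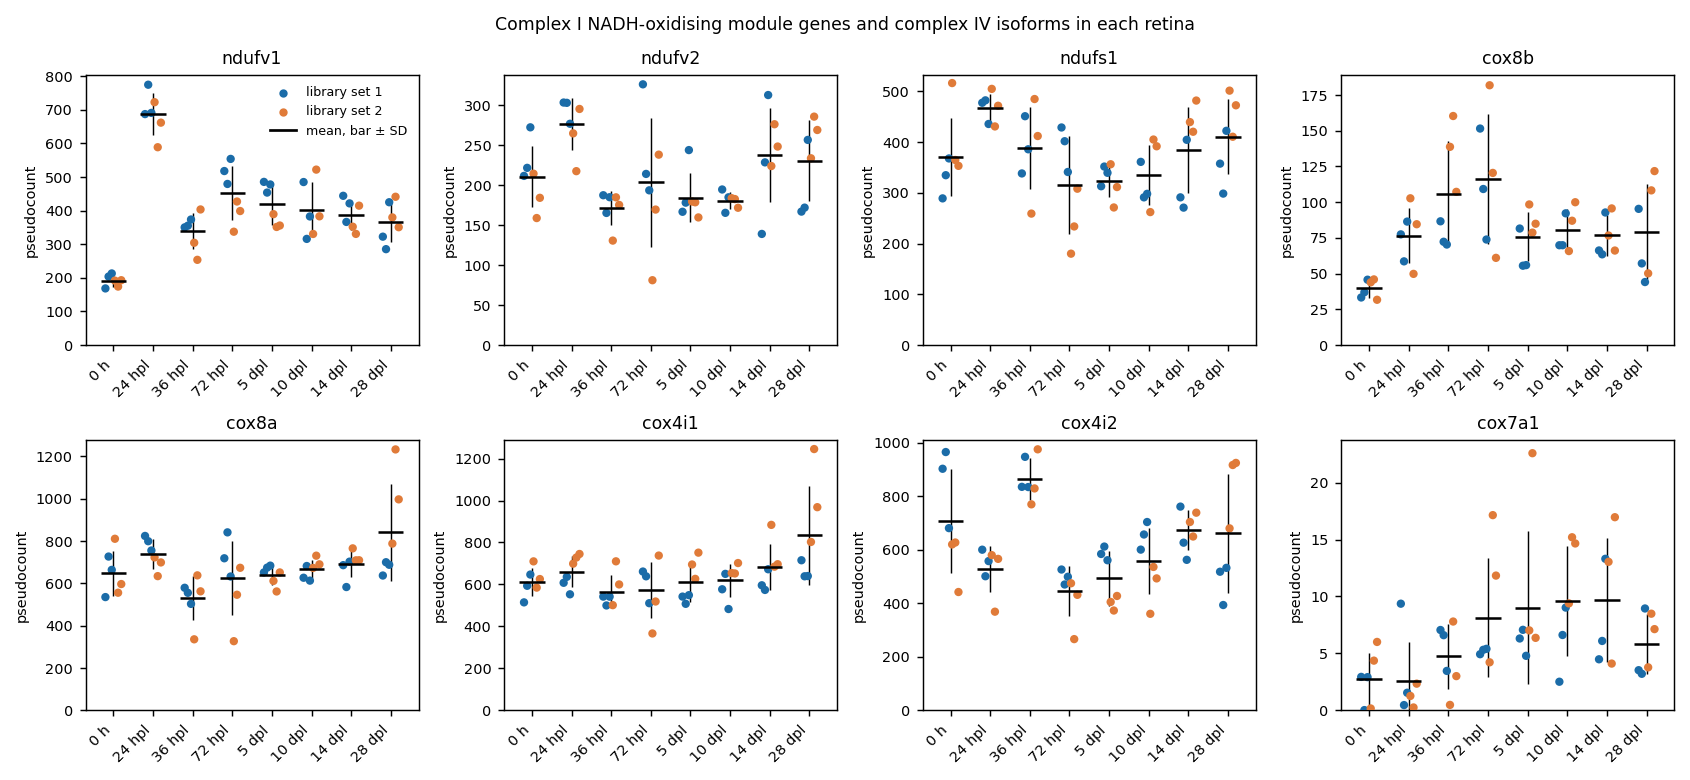
Pseudocounts (vertical axes, starting at 0) of 3 genes of the NADH-oxidising module of complex I and 5 isoform genes of complex IV in each retina at the 8 time-points (horizontal axes), coloured by library set, with mean and SD. ndufv1 and cox8b rise above their 0 h ranges while ndufv2, ndufs1 and cox8a overlap with theirs; cox4i2 is high at 36 hpl (769 to 975) between lower values at 24 and 72 hpl.

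The summed signals of complexes III and V were both lowest at 36 hpl and highest at 28 dpl in the mean. They differed at 24 hpl, at 121% of the 0 h mean for complex III and 98.2% for complex V. In complex III, uqcrb, a small accessory subunit, ranged from 959 to 1274 at 0 h (median 1075), from 1218 to 1760.1 at 24 hpl (median 1549), from 776 to 1018 at 36 hpl (median 819) and from 1294 to 1962 at 28 dpl (median 1472). It was above the 0 h range in 4 of 6 retinas at 24 hpl (log2 fold change 0.44, SE 0.14, adjusted p = 0.0282) and in 6 of 6 at 28 dpl (0.48, adjusted p = 0.0198). Its 24 hpl call was lost in 6 of 48 fits with 1 library left out, and its 28 dpl call in 3. Both calls were also lost in either set alone and with the replicate block, and that at 28 dpl under both scalings. uqcrfs1, the Rieske iron-sulphur protein, was called at 28 dpl (0.48, SE 0.13, adjusted p = 0.00846), as was uqcrq (0.51, adjusted p = 0.049975), another small subunit.

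No complex V gene was called higher at any time-point (background 5.59% to 9.66%). Only 1 was called lower, at 36 hpl (background 3.8%). It was atp5g3b, a gene for the c subunit of the rotor ring (log2 fold change -0.54, SE 0.17, adjusted p = 0.0281). It ranged from 956 to 1338.5 at 0 h and from 389.7 to 957 at 36 hpl, a range that met the 0 h range only at its top. Its call was lost in 4 of 48 fits with 1 library left out (limma adjusted p up to 0.145), that without 36 hpl replicate 4 among them. The call was also lost in either set alone and with the replicate block. atp5b, the catalytic β subunit and the gene with the highest mean pseudocount of the 85, ranged from 2571 to 4179 at 0 h, from 2137 to 3204 at 36 hpl and from 3743 to 4981 at 28 dpl, with log2 fold changes of -0.36 (adjusted p = 0.0822) and 0.34 (adjusted p = 0.114) at the latter 2. atp5l and atp5j2, subunits of the membrane part, had -0.41 and -0.46 at 36 hpl and 0.40 and 0.48 at 28 dpl, and neither was called. At 28 dpl all 17 complex V genes had a positive log2 fold change, with a median of 0.33 (0.03 over all genes). In complex I, where 9 of 36 were called, 33 were positive, also with a median of 0.33. atp5g3a, the paralogue of atp5g3b, was called at no time-point. How reads shared by near-identical paralogues were counted is not given in the sources used here, so values of such pairs are uncertain.

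By time-point, 11 of the 85 genes were higher at 24 hpl (background 8.37% of all genes) and 0 were lower (background 7.14%; 1 at an unadjusted p below 0.05). Apart from the 7 complex II genes these included ndufv1, uqcrb and cox8b. The median log2 fold change was 0.03 over the 85 genes and -0.07 over all genes.

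At 36 hpl 6 genes were higher (background 9.66%), the same 6 that were higher at all time-points, and 3 were lower (background 3.8%): ndufb2, ndufs3, a core subunit of complex I, and atp5g3b. The log2 fold change was negative for 63 of 85 genes, with a median of -0.24 against 0.13 for all genes. The number called lower depends on scaling and on single libraries. When values were rescaled by median-of-ratios factors, the median of all genes moved by -0.15 at 36 hpl and also by -0.15 at 10 dpl, and the calls at 36 hpl were 5 higher and 17 lower. With upper-quartile scaling these shifts were -0.13 and -0.16, and the calls were 5 higher and 14 lower. The shares of all genes called under these scalings are not given, so the backgrounds above do not apply to these counts. The lower calls numbered 6 without 0 h library A of set 1, 0 without 0 h replicate 2 or replicate 3, 1 without 0 h library A of set 2, 1 without 36 hpl replicate 4 or replicate 6, 12 without 72 hpl replicate 4 and 6 without 28 dpl replicate 5. (The 2 libraries A are 0 h libraries whose column carries no usable replicate number.)

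Directly compared with 24 hpl, 36 hpl had 19 genes lower (background 6.52%) and 1 higher (background 13.8%), the latter being cox4i2. The 19 were 5 of complex I, 5 of complex II, 4 of complex III, 2 of complex IV and 3 of complex V. sdha fell by 1.498 on the log2 scale (adjusted p = 9.59e-10), sdhaf2 by 1.08, ndufv1 by 1.02 (adjusted p = 1.37e-08), sdhb by 0.81 and uqcrb by 0.80. In complex V, atp5ib fell by 0.65, atp5b by 0.43 and atp5a1, the catalytic complex's α subunit, by 0.38. Without 36 hpl replicate 4 the lower calls numbered 11, and without 24 hpl replicate 5 the higher calls numbered 2.

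From 36 to 72 hpl 5 genes rose (background 3.59%): sdha by 0.97, sdhb by 0.81, sdhaf2 by 0.76, sdhaf4 by 0.59 and ndufv1 by 0.41 on the log2 scale. cox4i2 alone fell (background 4.88%). The higher calls numbered 3 without 36 hpl replicate 1 or replicate 5 or without 72 hpl replicate 1, replicate 2 or replicate 3, and 13 without 72 hpl replicate 4. That last library gave 1.31% of its signal to the 85 genes, against 2.10% to 2.46% in the others of its time-point, and its cone marker sum of 33968 was the lowest at 72 hpl.

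Against 0 h, 7 genes were higher at 72 hpl (background 9.2%) and 2 lower (background 5.7%), namely cox4i2 and ndufb2. The replicates 1 and 2 of 72 hpl had rho, the rod visual pigment, at 43328 and 39251, in the range of 24 hpl (20134 to 40181), or just above it, and the other 4 at 10422 to 14573. From 72 hpl to 14 dpl the higher genes hardly differed in number: 8 at 5 dpl (background 6.49%), 7 at 10 dpl (background 6.41%) and 7 at 14 dpl (background 5.59%). They were the 6 genes named above and cox7a1 at all 3, and sdhaf3 at 5 dpl. Of these, cox7a1 was tested only because of groups in which it was high. The sdhaf3 call was lost in 7 of the 48 fits with 1 library left out, under both scalings and in either set alone. No gene was lower at 5 dpl (background 2.09%; 3 at an unadjusted p below 0.05), 10 dpl (1.51%; 1) or 14 dpl (2.31%; 0). With upper-quartile scaling the 72 hpl calls were 6 higher and 3 lower, and with median-of-ratios scaling those at 5 dpl and at 10 dpl were each 6 higher and 1 lower. Without 0 h replicate 6, 1 gene was lower at 5 dpl.

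The steps from 72 hpl to 5 dpl, 5 to 10 dpl, 10 to 14 dpl and 14 to 28 dpl had 0 calls among the 85 genes in either direction (limma). Few genes of any kind were called there: 0.0702% higher and 0.00878% lower in the first step, 0.0351% higher and 0% lower in the second, 0.0176% higher and 0.228% lower in the third, and 0% in both directions in the last. At an unadjusted p below 0.05 the higher and lower genes numbered 6 and 2, 0 and 3, 8 and 1, and 11 and 0. Without 10 dpl replicate 1, 1 gene was lower at 10 dpl than at 5 dpl.

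At 28 dpl 22 of the 85 genes were higher than at 0 h (background 7.74%) and 0 lower (background 3.26%; 1 at an unadjusted p below 0.05). By complex they were 9 of 36 in complex I, 5 of 8 in complex II, 3 of 7 in complex III, 5 of 17 in complex IV and 0 of 17 in complex V. The log2 fold change was positive for 80 of 85 genes, with a median of 0.36 against 0.03 for all genes. Besides the genes above they were the complex I subunits ndufa1, ndufa2, ndufa11, ndufb6, ndufs4 and ndufs5 and the paralogues cox5aa (0.59, SE 0.14, adjusted p = 0.00229) and cox5ab (0.52, adjusted p = 0.0434), whose products bind at the matrix side of the oxidase.

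This wider rise was less stable than that of the 6 genes. It fell to 8 genes without 28 dpl replicate 5, to 12 without 28 dpl replicate 6, to 10 without 0 h library A of set 1, to 12 without 0 h replicate 5 and to 13 without 0 h replicate 6. The 8 genes left without 28 dpl replicate 5 were sdha, sdhb, sdhaf2, sdhaf4, ndufv1, cox8b, cox5aa and uqcrfs1. These kept their calls with each other library left out in turn. Of them, uqcrfs1 lost its call with median-of-ratios scaling, in either set alone and without both 0 h libraries of unknown replicate number. The calls of cox5aa and cox8b were lost in set 1 alone. With median-of-ratios scaling 8 genes were higher, and with upper-quartile scaling 10. Replicate 5 gave 3.90% of its signal to the 85 genes, replicate 6 gave 3.15% and the other 4 between 2.47% and 2.72%. Both belong to set 2, whose mean at 28 dpl was 3.20% against 2.58% in set 1. In set 1 alone 6 genes were higher and 4 lower, and in set 2 alone 15 higher and 0 lower. The shares of all genes in each set alone are not given. The difference between sets was not tested for the sum.

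Genes that work beside the subunits were read from lists made with earlier results of these data known. cyc1, the cytochrome c1 subunit of complex III, lies outside the symbol stems. It ranged from 304 to 460.4 at 0 h (median 369) and from 799 to 934 at 24 hpl (median 852), and no retina overlapped with 0 h at any light time-point. Its log2 fold change was 1.19 (adjusted p = 2.01e-10) at 24 hpl and 0.94 (adjusted p = 1.76e-07) at 28 dpl, and it was called at all 7. ndufab1a, the acyl carrier protein of complex I, also outside the stems, was higher at 24 hpl (0.53, adjusted p = 0.0139) and at 28 dpl (0.68, adjusted p = 0.00161). Its paralogue ndufab1b went the other way and was called lower at 2 time-points, 24 and 72 hpl. Of these 3 subunits outside the stems 2 were thus higher and 1 lower at 24 hpl (background 8.37% and 7.14%). cycsb, a cytochrome c gene, went from 192 to 384 at 0 h to 1035 to 1561 at 24 hpl (2.05, adjusted p = 1.36e-13) and was called at 6 of 7, all but 36 hpl (0.39, adjusted p = 0.126). Of the 11 carrier genes tested 5 were higher and 2 lower at 24 hpl (background 8.37% and 7.14%), and 7 higher and 0 lower at 28 dpl (7.74% and 3.26%). etfa and etfdh, which feed electrons from fatty acid oxidation to ubiquinone, were called higher at 6 time-points each. vdac1, an outer-membrane pore, and slc25a3a, a phosphate carrier, were lower at 5 and at 3 time-points. Their paralogues had calls in the other direction: vdac2 was higher at 4 time-points (0.66 at 28 dpl, adjusted p = 4.40e-04) and slc25a3b at 2.

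Of the 34 assembly factors tested that are not among the 85 genes, 8 were higher and 1 lower at 24 hpl (background 8.37% and 7.14%), 4 higher at 36 hpl (9.66%, near the share of the list), 10 higher and 1 lower at 72 hpl (9.2% and 5.7%), and 9 higher at 28 dpl (7.74%). cox17, the copper chaperone of complex IV, went from 88.3 to 153 at 0 h to 359.7 to 443 at 24 hpl (log2 fold change 1.73, adjusted p = 3.26e-15). uqcc3, an assembly factor of complex III, went from 23.5 to 38.1 at 0 h to 102 to 146 at 14 dpl (1.91, adjusted p = 2.26e-09). acad9, an assembly factor of complex I, was highest at 36 hpl (1.73, adjusted p = 1.15e-08). These 3 were called at all 7 time-points, and cox17 and uqcc3 showed no overlap with 0 h in any light-exposed retina.

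Of the citric acid cycle and pyruvate dehydrogenase genes (17 tested) 3 were higher and 0 lower at 24 hpl (background 8.37% and 7.14%), 0 higher and 2 lower at 36 hpl (9.66% and 3.8%), and 1 higher and 0 lower at 28 dpl (7.74% and 3.26%). Citrate synthase, cs, was lower at 36 hpl (-0.34, adjusted p = 0.0213) and called nowhere else. The 2 largest called changes of the list were downward, in the pyruvate dehydrogenase genes dlat and pdha1b. dlat fell from a mean of 17.7 to 3.16 at 14 dpl (-2.33, adjusted p = 0.00439), below the filter's value of 5. pdha1b fell from 79.8 to 41.8 at 36 hpl (-0.97, adjusted p = 0.0122), while its paralogue pdha1a was called higher at 1 time-point. Of 71 genes of the mitochondrial ribosome 3 were higher and 4 lower at 24 hpl, both shares below the background of 8.37% and 7.14%, and 14 higher and 0 lower at 28 dpl (background 7.74% and 3.26%), with a median log2 fold change of 0.40 there. The largest changes were those of mrpl57 at 28 dpl (0.90, adjusted p = 5.82e-04) and mrpl23 at 72 hpl (0.89, adjusted p = 3.28e-06), and mrpl23 was called higher at 6 time-points. Among 7 regulators of mitochondrial biogenesis 0 were higher and 2 lower at 24 hpl (background 8.37% and 7.14%), and at most 1 was called at any other time-point. The lower genes were tfam, which packages mitochondrial DNA (-0.72, adjusted p = 1.31e-04), and ssbp1. nrf1 was higher at 36 hpl (0.90, adjusted p = 0.00284), and tfb2m at 10 dpl (1.06, adjusted p = 0.0414) and at 72 hpl (0.97, adjusted p = 0.0445).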

How the data were processed

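Retinas of 48 fish were sequenced as 3′ mRNA libraries (QuantSeq). Per the labels and the study's methods, the authors aligned reads with STAR to zebrafish build dR10 and counted them per gene with HTSeq; versions, strand setting and the handling of multiply mapped reads are not given in the sources used here. The deposited values are pseudocounts from edgeR, a signal per gene adjusted by the authors to a common library size (totals of 1631676 to 1636771), not raw counts. No count model was therefore used, and depth per library is unknown. The authors' means per time-point were not needed. Their tables of comparisons (0 h against 5 dpl, and 5 against 10 dpl under acute light), which hold log2 fold changes, log2 CPM, likelihood ratios, p-values and FDR, were not used.

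A total of 12 symbols turned into dates by a spreadsheet (0.183% of signal) were left out. The 11395 genes that reached a pseudocount of 5 in 6 or more libraries were kept, and limma 3.58.1 in R 4.3.3 was run on log2(value + 1) with a trend, modelling time-point and library set (39 residual degrees of freedom) and Benjamini-Hochberg adjustment over all genes of each comparison. The limma code was tested on simulated data. Library set was read from the column names; 2 columns at 0 h could not be tied to a replicate number (library A of either set). No 2 libraries were alike (highest correlation 0.953).

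The 85 genes, the other gene lists and the tests were chosen with earlier results of these data known. Named genes were, per complex, the most abundant and the 3 with the smallest F-test p, then the 10 with the largest called change and isoforms or paralogues with differing calls; other called genes are named to complete a count, and the 2 genes of largest change per further list. Genes outside these rules (ndufv2, ndufs1, cox17, acad9, etfa, vdac1, slc25a3a, cs and tfam among them) were named after their values were seen. Alternatives covered the pseudocount, the filter, 2 scalings, the model terms, each library set alone, a replicate block and each library left out. The values of 1 gene are not reported here, although it is included in the counts.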

Additional observations from a re-analysis of the deposited data

Results flagged for a closer look

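Within a time-point, a retina was marked when its gap to the nearest of the other 5 exceeded 0.625 of the group's whole range (Dixon's test at 95%). This held in 24 of 280 groups checked, and chance alone marks about 5%. The groups share libraries and are not independent.

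The 36 hpl replicate 4 was lowest for atp5g3b (389.7, the nearest 745), atp5j2 (353, the nearest 569.6) and uqcrq (271, the nearest 440.1), for the complex III and V sums (0.113% and 0.463% of signal) and for all 85 genes together (1.435%, the nearest 1.91%). The 72 hpl replicate 4 was lowest for cox7a2a (194, the nearest 499), sdhdb (77.1, the nearest 127) and uqcrfs1 (285, the nearest 408), for the sums of complexes I, III and V (0.427%, 0.101% and 0.412%) and for all 85 genes (1.31%, the nearest 2.10%). The 28 dpl replicate 5 was highest for atp5j2 (1699, the nearest 1098) and uqcrq (1221, the nearest 867).

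Further retinas stood apart for 1 or 2 genes. The 5 dpl replicate 5 was highest for atp5b (4677, the nearest 3441) and cox7a1 (22.6, the nearest 7.07). The 72 hpl replicate 5 was highest for sdha (1633, the nearest 1222) and lowest for cox4i2 (266, the nearest 431). The 24 hpl replicate 1 was highest for cox7a1 (9.37, the nearest 2.35) and lowest for sdhaf3 (34.5, the nearest 55.6), and the 24 hpl replicate 3 was lowest for ndufs7 (1296, the nearest 1681). For sdhda the 72 hpl replicate 6 was highest (24.7, the nearest 10.6) and the 28 dpl replicate 6 lowest (1.42, the nearest 8.07).

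The time-course of cox4i2 differed between the library sets (time-point by set interaction, limma adjusted p = 0.0226).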

How the results depend on the processing

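Gene by gene, alternatives were examined only for members of the 85 named for abundance, F-test p, largest called change or differing isoforms (203 results). Other genes named here, all those outside the 85 among them, were not examined singly in this way. None of the genes examined changed direction while called under any alternative, and of 12180 gene values 250 lost and 55 gained a call. sdha, sdhaf4 and ndufv1 kept all their calls under all 60 alternatives, sdhaf2 all but 1 (36 hpl, set 2 alone) and sdhb all at time-points other than 36 hpl, where 7 alternatives lost it, both scalings among them. cox8b kept its calls at 36 and 72 hpl and with any 1 library left out, but lost them at 24 hpl and 10 dpl in set 2 alone, at 28 dpl in set 1 alone, at 14 dpl in either set alone, and at 5 dpl in either set alone and with the replicate block. The cause of the moves below was not tested. Counts are of the 85 genes. The shares of all genes called under these alternatives are not given, so the backgrounds above do not apply to these counts.

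Median-of-ratios scaling gave 17 lower at 36 hpl, 1 lower at 5 dpl, 1 lower at 10 dpl, 8 higher at 28 dpl, and 0 higher and 41 lower at 36 against 24 hpl. Upper-quartile scaling gave 14 lower at 36 hpl, 1 lower at 10 dpl, 10 higher at 28 dpl and 33 lower at 36 against 24 hpl. Under these 2 scalings the summed signal was 2.55% and 2.59% at 24 hpl and 1.99% and 2.03% at 10 dpl, and without complex II 2.34% and 2.38%, and 1.88% and 1.92%. Without a variance trend there were 1 lower at 36 hpl and 13 higher at 28 dpl. Set 1 alone gave 14 that varied over time, 7 higher and 1 lower at 24 hpl, 1 lower at 36 hpl, 1 lower at 72 hpl, 5 higher at 5 dpl, 1 lower at 14 dpl, 6 higher and 4 lower at 28 dpl and 3 higher at 72 against 36 hpl. Set 2 alone gave 6 higher at 24 hpl, 0 lower at 36 hpl, 1 lower at 72 hpl, 5 higher at 5 dpl, 6 lower at 36 against 24 hpl and 1 higher at 72 against 36 hpl. A fold of at least 2 left 5 higher at 24 hpl, 3 higher and 0 lower at 36 hpl, 0 lower at 72 hpl, 4 higher at 28 dpl, 0 higher and 3 lower at 36 against 24 hpl, and 0 higher and 0 lower at 72 against 36 hpl.

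With the replicate block (46 libraries, without the 2 unnumbered ones) there were 1 lower at 36 hpl, 1 lower at 72 hpl, 5 higher at 5 dpl and 12 higher at 28 dpl. The numbers did not pair the libraries: 15 of 154 same-number pairs had correlated deviations over 0.1 (median -0.0021), and 16 of 46 libraries correlated best with their own number. Of 2 alternatives added after seeing the data, leaving out 72 hpl replicates 1 and 2 gave 3 higher and 2 lower at 72 against 36 hpl (6 higher at 72 hpl), and leaving out both unnumbered 0 h libraries gave 8 higher at 28 dpl.

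With each library left out, the counts ranged from 35 to 53 for variation over time, 9 to 12 higher at 24 hpl, 5 to 7 higher and 0 to 12 lower at 36 hpl, 6 to 8 higher at 72 hpl, 6 to 9 higher and 0 to 1 lower at 5 dpl, 6 to 7 higher at 10 and at 14 dpl, 8 to 33 higher at 28 dpl, 1 to 2 higher and 11 to 25 lower at 36 against 24 hpl, 3 to 13 higher at 72 against 36 hpl, and 0 to 1 lower at 10 against 5 dpl. The interaction count of 1 was 3 with a pseudocount of 5, 3 with median-of-ratios scaling and 0 without a trend, and from 0 to 10 with a library left out: 0 without 28 dpl replicate 1, 2, 5 or 6, 3 without 36 hpl replicate 4, 72 hpl replicate 3, 5 dpl replicate 5, 10 dpl replicate 3 or 28 dpl replicate 3, 4 without 5 dpl replicate 6, 8 without 36 hpl replicate 5 or 28 dpl replicate 4, and 10 without 72 hpl replicate 6. Calls near the threshold were the least stable: uqcrq at 28 dpl was lost in 40 and cox7a2a at 28 dpl in 25 of 48 such fits. Depth per library is not given in the values, and log2 changes as large as 0.50 (atp5g3b at 28 dpl, adjusted p = 0.0523) were not called.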
